A study of Mus musculus with 3 samples.

Results

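*Obp1a*, *Obp1b*, *Mup4* and *Lcn11* are 4 lipocalin genes of mouse tears, taken by name as 4 of the 32285 genes counted in single cells of the lacrimal gland (LG), the exocrine gland that makes the watery part of tears. They were followed through the acinar cells and their states, the *Car6*hi, *Tfrc*hi and *Ltf*+ epithelial cells, ducts, myoepithelial cells (MECs) and stroma. The libraries came from untreated C57BL/6J mice aged 2 months and each library pooled 6 LGs of 3 animals, so that the spread between animals was not measured. There was 1 female library and there were 2 male libraries. The male libraries were prepared elsewhere and at a later or earlier date than the female one, so that sex cannot be told apart from place and date. Values of the sexes are set side by side with no test.

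Lipocalins fold into a barrel with a pocket for small oily molecules, and many are secreted. The odorant-binding proteins *Obp1a* and *Obp1b* belong to an X-linked group first known from nasal mucus, where they carry odorants. *Mup4* belongs to the major urinary proteins, which bind pheromones and are best known from male mouse urine, and *Lcn11* is a gene of the *Lcn* group. The LG secretes such carriers from acinar cells, together with secretoglobins and exocrine gland-secreted peptides.

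In the GENCODE annotation of GRCm38, the build that mm10 also names, *Obp1a* (ENSMUSG00000067684) lay on the minus strand at chrX:78085505-78091374 and *Obp1b* (ENSMUSG00000067679) on the plus strand at chrX:78186777-78192292. The near copy *Gm5938* lay between them at chrX:78125467-78130403, and *Gm14743* beyond *Obp1b* at chrX:78240462-78245921. Each of these genes had 7 exons, of which 6 held coding sequence. *Mup4* (ENSMUSG00000041333) was at chr4:59956804-59960710 with 7 exons, and *Lcn11* (ENSMUSG00000069080) at chr2:25777017-25780279 with 6 exons.

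How well reads of these genes can be told apart depends on how alike the transcripts are. *Obp1b* and *Gm14743* shared 752 of 757 aligned transcript bases (99.3%), whereas *Obp1a* and *Gm5938* shared 87.6% and *Obp1a* and *Obp1b* 73.7%. Of the 60-base windows in the last 300 bases, where this 3′ assay reads, 36.5% of those of *Obp1b* also occurred in *Gm14743*, 14.5% of those of *Mup4* occurred in other *Mup* genes, and 0% of those of *Obp1a* and *Lcn11* occurred in another transcript. The split of counts between *Obp1b* and *Gm14743* is therefore uncertain, and that of *Mup4* less so. The first 100 bases of coding exon 2, all exonic and 140 bases long in full, are shown to make this visible, with capitals for bases that differ from *Obp1a* (GENCODE, GRCm38). *Gm5938* differed at 2 bases, and *Obp1b* and *Gm14743* at the same 35.
Obp1a, chrX:78090745-78090844, minus strand: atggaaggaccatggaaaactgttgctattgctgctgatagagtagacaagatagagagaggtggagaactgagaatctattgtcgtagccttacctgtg
Gm5938, chrX:78125996-78126095, plus strand: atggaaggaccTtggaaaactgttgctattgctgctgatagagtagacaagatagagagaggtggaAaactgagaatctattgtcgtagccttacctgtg
Obp1b, chrX:78187348-78187447, plus strand: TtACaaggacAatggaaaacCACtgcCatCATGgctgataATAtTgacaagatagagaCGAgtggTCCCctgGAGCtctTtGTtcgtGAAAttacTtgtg
Gm14743, chrX:78245291-78245390, minus strand: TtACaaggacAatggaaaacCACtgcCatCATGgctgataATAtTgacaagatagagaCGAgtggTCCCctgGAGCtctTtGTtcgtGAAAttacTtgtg

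The promoters of *Obp1b* and *Gm14743* matched at 241 of 241 aligned bases and those of *Obp1a* and *Gm5938* at 92.4%, against 68.5% between *Obp1a* and *Obp1b*. The 100 bases before each GENCODE start are shown to let the pairs be compared (RefSeq, GRCm38.p6), with TATAAA in capitals, or CATAAA at the matching place of *Gm5938*.
Obp1a, chrX:78091375-78091474, minus strand: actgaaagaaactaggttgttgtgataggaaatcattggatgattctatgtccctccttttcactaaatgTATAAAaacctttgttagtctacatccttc
Gm5938, chrX:78125367-78125466, plus strand: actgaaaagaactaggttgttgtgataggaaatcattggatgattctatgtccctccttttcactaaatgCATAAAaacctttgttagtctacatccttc
Obp1b, chrX:78186677-78186776, plus strand: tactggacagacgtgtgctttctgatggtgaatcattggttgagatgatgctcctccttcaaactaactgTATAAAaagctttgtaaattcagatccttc
Gm14743, chrX:78245922-78246021, minus strand: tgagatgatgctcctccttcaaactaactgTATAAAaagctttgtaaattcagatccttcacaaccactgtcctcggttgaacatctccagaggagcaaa
TATAAA was searched on both strands and was present on the gene's strand in the promoters of *Obp1a*, *Obp1b*, *Gm14743* and *Mup4*, and on neither strand in those of *Gm5938* and *Lcn11*. It occurred on the gene's strand in 7.59% of 32851 RefSeq promoters of the same length and on either strand in 12.4%. A match describes these letters only.

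After filtering, 7652, 5295 and 5397 cells remained in the female, male 1 and male 2 libraries, the order used for all values below, with 55390678, 37641576 and 41269825 unique molecular identifiers (UMIs). A UMI marks 1 captured RNA molecule, so levels, given as CPM, the UMIs of a gene per 1000000 UMIs of the summed cells, needed no scaling by gene length. Cells were clustered without 257 genes. These were tear products and lipocalins, the 4 lipocalins among them, and mitochondrial, ribosomal protein, hemoglobin, X-inactivation and Y-linked genes. Tear products that served as markers, such as *Car6*, *Ltf* and *Bglap3*, were not left out. Classes were named "-like" from marker genes. Of the markers listed for each class, those above 2 times the median of the other classes were counted. They were 8 of 8 in acinar-like, duct-like, MEC-like and *Ltf*+-like cells, 7 of 7 in *Tfrc*hi-like and 5 of 6 in *Car6*hi-like cells. There were 792, 1426 and 1920 acinar-like cells and 90, 164 and 131 *Car6*hi-like cells. The latter were deeper in the female library, with median UMIs of 15364.5, 2833 and 3038, and the part of this in the values below was not tested. At clustering resolutions of 0.6 and 1.5, in place of 1, *Car6*hi-like cells numbered 71, 112 and 80. The *Ltf*+-like cells went from 73, 361 and 362 to 93 or 92, 414 and 413. Between 8 and 13 cell barcodes were shared by a pair of libraries.

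The 4 genes made up 21.5%, 12.9% and 12.4% of all UMIs of acinar-like cells, and 26.9%, 24.4% and 22.6% in *Car6*hi-like cells. *Obp1a* led in both sexes. Its level in acinar-like cells was 149000, 112000 and 109000 CPM, 1.33 and 1.37 times higher in the female than in the male libraries. The acinar-like cells held 69.0%, 83.4% and 84.2% of all *Obp1a* UMIs.

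The other X-linked gene, *Obp1b*, separated the libraries. Its level in acinar-like cells was 63900 CPM in the female library and 55.8 and 37.9 CPM in the male libraries (95% exact Poisson intervals 53.1 to 58.6 and 35.9 to 40.1, which cover counting error only), or 1150 and 1690 times higher in the female library. *Gm14743*, whose reads overlap with those of *Obp1b*, had 44200, 457 and 397 CPM there. *Gm5938*, the near copy of *Obp1a*, had 74900, 44100 and 41800 CPM, or 0.504, 0.395 and 0.383 of the *Obp1a* level. The near copy of each gene was thus higher in the same library as the gene itself.

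*Mup4* ran the other way. Acinar-like cells had 221, 14000 and 12700 CPM of *Mup4*, 63.3 and 57.5 times more in the male libraries than in the female library. *Lcn11* stood closer together, with 2270, 3410 and 2750 CPM, or 1.5 and 1.21 times more in the male libraries. In the female library the order of levels in acinar-like cells was *Obp1a*, *Obp1b*, *Lcn11* and *Mup4*, and in both male libraries *Obp1a*, *Mup4*, *Lcn11* and *Obp1b*. No neighbours in either order had overlapping values between the 2 male libraries.

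**Figure D1:**
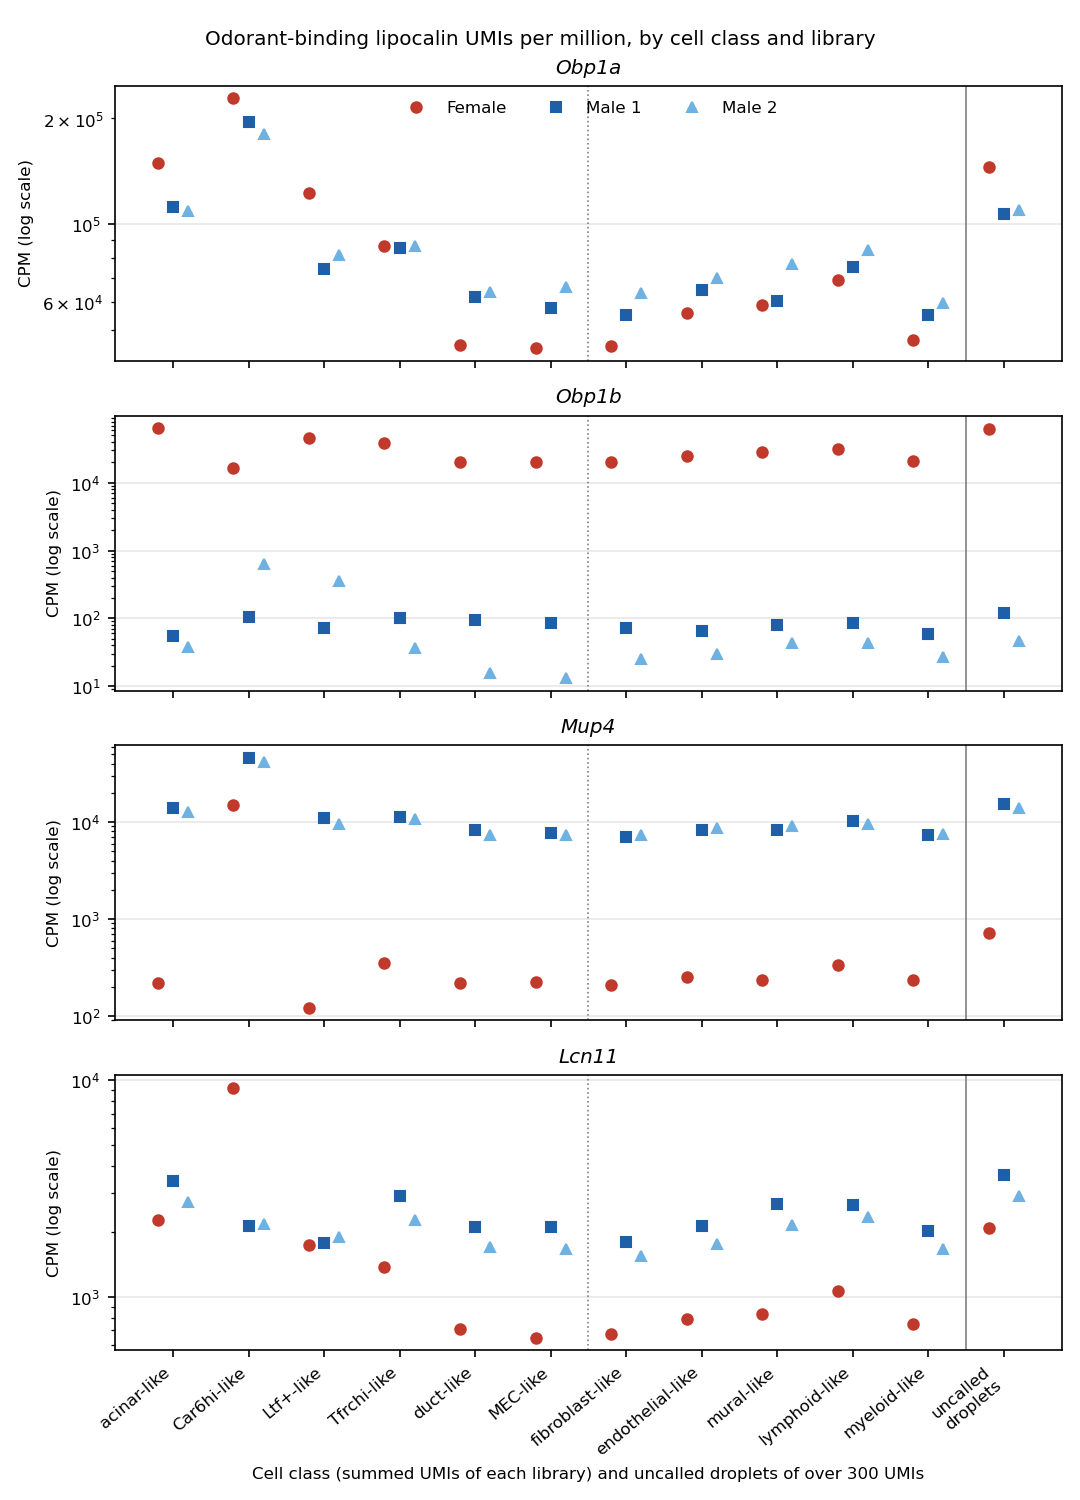
Levels of the 4 lipocalins as CPM of summed UMIs (log axis) by cell class and, right of the solid line, in uncalled droplets of over 300 UMIs, with 1 point per library and stromal and immune classes right of the dotted line. *Obp1b* in the female library and *Mup4* in the male libraries lie above the other sex in every class, and the *Mup4* points of the female library stand highest in *Car6*hi-like cells, at 14900 CPM.

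RNA free in a suspension enters every droplet, so each class was set beside droplets without a called cell. Uncalled droplets of over 300 UMIs, with medians of 1038, 1043 and 738 UMIs, carried 181, 123 and 99.2 *Obp1a* UMIs each. Duct-like, MEC-like and the 5 stromal and immune classes carried 145 to 197, 87.5 to 113 and 91.3 to 134 *Obp1a* UMIs per cell, against 5330, 2300 and 1890 per acinar-like cell. For *Mup4* the same droplets carried 0.897, 17.6 and 12.4 UMIs and these classes 0.673 to 0.893, 11.2 to 15.4 and at most 16.0 per cell. Levels in ducts, MECs and stroma were therefore read as background and not as expression. *Tfrc*hi-like cells lay near it too, with 246, 146 and 121 *Obp1a* UMIs per cell.

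The shares of cells with a UMI read alike. With each cell thinned to 1000 UMIs, a *Mup4* UMI was found in 27.5% of acinar-like cells of the female library (78.0% unthinned), against 17.5% of its fibroblast-like cells, which should lack the gene (41.1% unthinned), at median depths of 9037.5 and 3117 UMIs. In the male libraries 100% and 99.9% of acinar-like cells had one. For *Obp1b* the male acinar-like cells, with 4.63% and 2.76%, were not above fibroblast-like cells, with 6.71% and 2.97%, and so at background for most cells. Their sums held more, with 1.15 and 0.657 *Obp1b* UMIs per cell against 0.138 and 0.0422 per droplet, of which 17 and 9 cells held 62.3% and 58.8%.

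**Figure D2:**
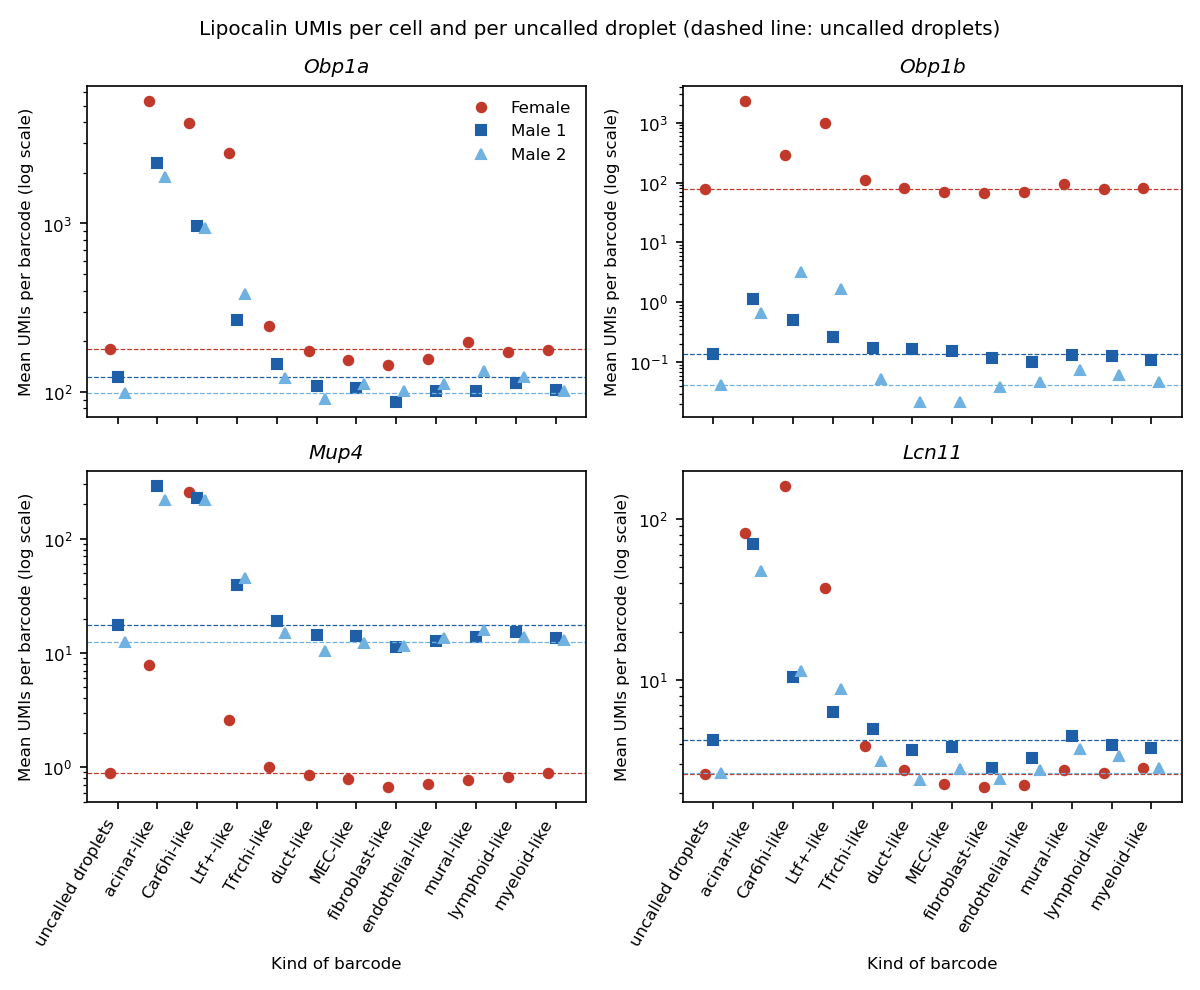
UMIs of each lipocalin per barcode (log axis) in uncalled droplets of over 300 UMIs and in each cell class, with 1 point per library and a dashed line at the droplets of each library. Duct-like, MEC-like and stromal cells sit at the level of the droplets, whereas acinar-like and *Car6*hi-like cells sit above it for *Obp1a* and, in all 3 libraries, for *Mup4*.

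*Car6*hi-like cells, acinar cells named for carbonic anhydrase 6, had the highest *Obp1a* and *Mup4* levels of any class by CPM. *Obp1a* stood at 228000, 196000 and 181000 CPM, 1.53, 1.75 and 1.66 times the acinar-like level. *Mup4* stood at 14900, 45800 and 42100 CPM, 67.4, 3.27 and 3.31 times the acinar-like level. Both were higher by CPM in 3 of 3 libraries. The excess of *Mup4* in the male libraries over the female library was 3.07 and 2.83 times here, far less than in acinar-like cells. Per cell, *Obp1a* was lower than in acinar-like cells, at 3950, 964 and 941 UMIs against 5330, 2300 and 1890. *Mup4* stood at 258, 226 and 219 UMIs per cell against 7.91, 289 and 220.

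The 90 *Car6*hi-like cells of the female library, 1.18% of its cells, held 65.8% of all its *Mup4* UMIs, while the acinar-like cells held 17.8%. In the male libraries the acinar-like cells held 80.0% and 81.2%. *Lcn11* turned direction with the library: *Car6*hi-like cells had 9230, 2130 and 2170 CPM, 4.07 times the acinar-like level in the female library and 0.625 and 0.789 times in the male libraries. *Obp1b* was lower than in acinar-like cells in the female library, at 16500 CPM or 0.258 times, and stood at 103 and 626 CPM in the male libraries, where 4 of 131 cells of male 2 held 89.0% of the UMIs.

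*Obp1a* and *Mup4* in these cells lay above a limit for free RNA that was set by other tear genes. A gene's share of the class was divided by its share of the UMIs of uncalled barcodes, and the lowest such ratio among 15 reference tear genes set the limit. With barcodes of 10 to 100 UMIs as free RNA, *Mup4* in *Car6*hi-like cells was 194, 7.50 and 6.21 times that limit and *Obp1a* 13.5, 3.26 and 2.51 times, and *Lcn11* was 40.8 times in the female library and 1.56 and 1.41 times in the male libraries. With the droplets of over 300 UMIs, chosen after the data were seen, *Mup4* was 99.6, 6.20 and 5.79 times and *Obp1a* 7.55, 3.79 and 3.11 times the limit. The limit depends on the reference genes and on the barcodes taken as free RNA. Fewer combinations of gene, class and library passed 2 times the limit when the median of the reference genes set it, as given below.

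The tests took UMIs summed per library and class, with the library as a block, since both classes of a library came from 1 suspension. They used edgeR's quasi-likelihood test with Benjamini-Hochberg adjustment across the whole table and called genes at an adjusted p under 0.05. All 4 lipocalins passed the filter on low counts in each of 7 comparisons. The trimmed-mean (TMM) scaling used there sets each gene against the bulk of genes, so a gene can rise as a share of all UMIs and still fall against the bulk of genes. Scaled to total UMIs instead, the median log2 fold change of all genes against acinar-like cells moved upward. It moved to 1.06 in *Car6*hi-like, 2.06 in *Ltf*+-like, 2.13 in *Tfrc*hi-like and 2.78 in duct-like cells.

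In *Car6*hi-like against acinar-like cells, 0 of 4 lipocalins passed, beside 3.81% of 8574 genes higher and 3.76% lower; DESeq2 also called 0, and *Mup4* alone had an unadjusted p under 0.05. The log2 fold change of *Mup4* was 1.89 (SE 0.71, adjusted p = 0.142), that of *Obp1a* -0.29 (SE 0.40, adjusted p = 0.781), of *Obp1b* -0.08 (SE 0.83, adjusted p = 0.981) and of *Lcn11* -0.73 (SE 0.45, adjusted p = 0.422). The call depended on the libraries. Without the female library *Mup4* passed with 0.63 (adjusted p = 4.22e-06) and *Lcn11* with -1.61 (adjusted p = 1.07e-38). *Obp1b*, most of whose UMIs in male 2 came from 4 cells, passed there with 1.60 (adjusted p = 1.11e-29). The 2 male libraries differed for *Obp1b*, at 1.85 and 16.5 times the acinar-like CPM. A fit without 1 library holds 2 libraries, so its adjusted p, here or below, is a poor measure of the spread between them. *Mup4* also passed without male 1 (2.91, adjusted p = 0.0285) and without male 2 (2.88, adjusted p = 0.0104), and when scaled to total UMIs (2.99, adjusted p = 0.00421). Scaled to total UMIs, the values of *Obp1a*, *Obp1b* and *Lcn11* turned to 0.81, 1.02 and 0.37, all below the median of all genes there. Over 15 alternatives the adjusted p of *Mup4* ran from 4.46e-07 to 0.739, with 8 past the threshold.

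**Figure D3:**
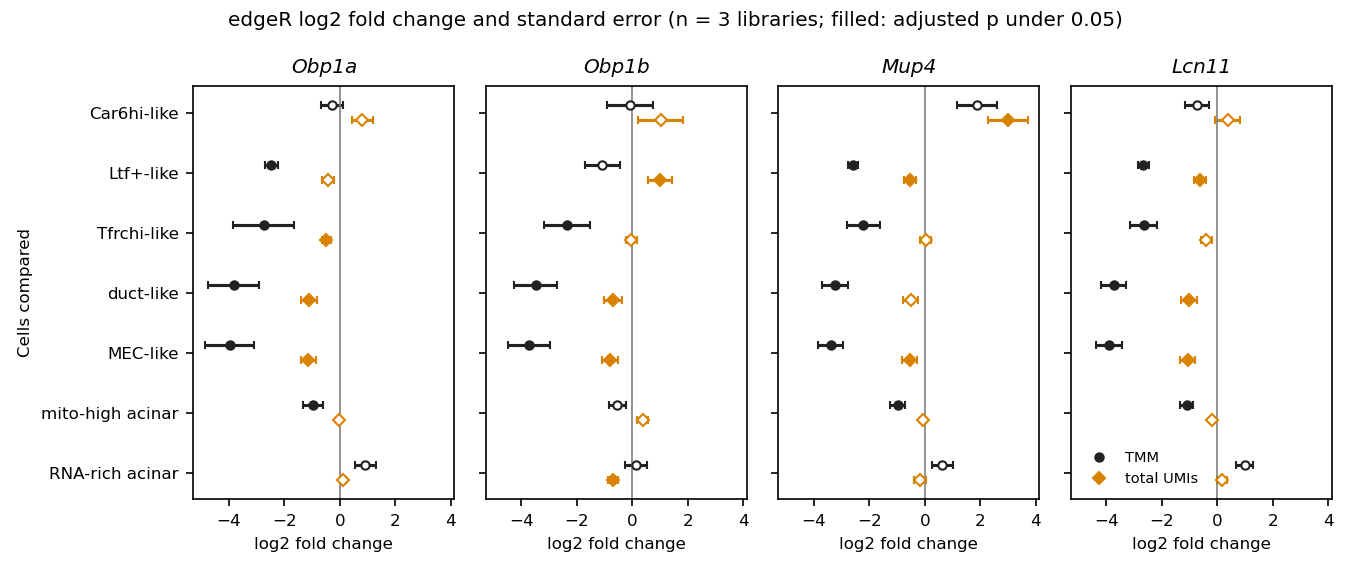
Log2 fold changes of the 4 lipocalins in 7 comparisons, of a class against acinar-like cells or of acinar-like cells against each other (edgeR, bars 1 SE, 3 libraries; circles TMM, diamonds total UMIs, filled where the adjusted p is under 0.05). By TMM all 4 lie below 0 in *Ltf*+-like, *Tfrc*hi-like, duct-like and MEC-like cells, and in *Car6*hi-like cells *Mup4* alone lies above 0, at 1.89.

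The reference tear genes did not follow *Mup4* into the *Car6*hi-like cells. Of these 15 genes, which include secretoglobins, exocrine gland-secreted peptides and *Pip*, 13 fell and 0 rose in *Car6*hi-like cells, with a median log2 fold change of -2.05 against -0.05 over all genes. *Gm5938* had a log2 fold change of -0.44 (adjusted p = 0.579), beside that of *Obp1a*, and *Gm14743* fell by 1.95 (SE 0.33, adjusted p = 0.00133).

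Within the *Car6*hi-like cells of the female library the lipocalins were uneven. The cells at the 10th percentile, median and 90th percentile had 8410, 261000 and 428000 CPM of *Obp1a*, 0, 2760 and 41200 CPM of *Mup4*, and 99.5, 2270 and 19600 CPM of *Lcn11*. With a limit of 20 UMIs set after the values were seen, 41 of 90 cells were high in both *Mup4* and *Lcn11*, 6 in *Mup4* only, 6 in *Lcn11* only and 37 in neither. The 41 cells had 317000 CPM of *Obp1a*, 24000 of *Mup4* and 14400 of *Lcn11*, at a median depth of 22581 UMIs. The 37 cells had 27100, 175 and 284 CPM, at 9548 UMIs, and the part of depth in the split was not tested. With more doublets removed, 56 of the 90 cells were left, at 22200 CPM of *Mup4* and 13400 CPM of *Lcn11*. These 56 held 23121 of the 23205 *Mup4* UMIs and 13979 of the 14395 *Lcn11* UMIs of the class. The doublet-like cells removed thus held little of either gene, and the part of doublets in the split was not tested. *Car6* itself was present in the 41 and in the 37 cells, at 49100 and 17600 CPM. In the male libraries droplets alone carried 17.6 and 12.4 *Mup4* UMIs, so cells without the transcript could not be set apart.

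Over *Car6*hi-like cells of at least 5000 UMIs, given as a description, the correlation of *Mup4* with *Obp1a* was 0.81, 0.78 and 0.77 in 70, 36 and 35 cells. That of *Lcn11* with *Obp1a* was 0.83 in the female library and -0.17 and -0.12 in the male libraries. These cells share their library and free RNA. *Obp1a* and *Mup4* thus varied together in the *Car6*hi-like cells of at least 5000 UMIs of every library. *Lcn11* went with them in the female library. In the male libraries these were 36 of 164 and 35 of 131 cells, and the part of depth and of doublets was not tested.

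**Figure D4:**
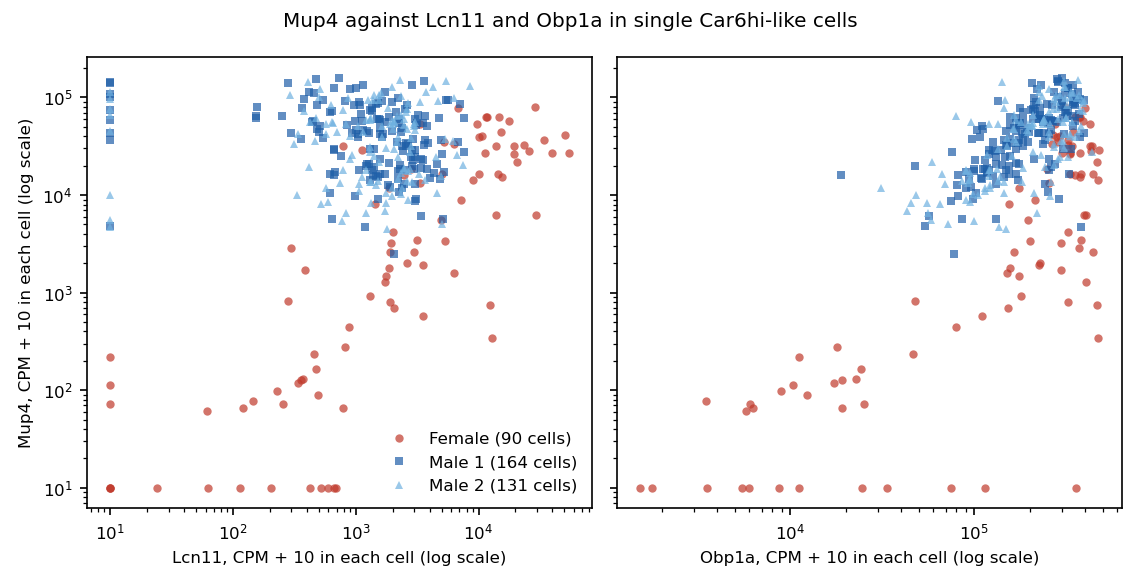
*Mup4* against *Lcn11* (left) and against *Obp1a* (right) in single *Car6*hi-like cells, as CPM of the cell plus 10 on log axes, with color and shape by library. In the female library the cells spread from 0 to 80200 CPM of *Mup4*, and in the male libraries the lowest cells hold 2470 and 4450 CPM.

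*Ltf*+-like cells are duct-associated cells named for lactoferrin, and numbered 73, 361 and 362. Their *Obp1a* level was 123000, 74400 and 81400 CPM, that of *Obp1b* 46300, 73.0 and 361 CPM (2 cells held 82.3% of the UMIs of male 2, and the rest stood at 65.3 CPM), that of *Mup4* 121, 10900 and 9610 CPM and that of *Lcn11* 1740, 1770 and 1890 CPM. *Obp1a* (log2 fold change -2.47, SE 0.24, adjusted p = 3.61e-05), *Mup4* (-2.58, SE 0.19, adjusted p = 4.91e-06) and *Lcn11* (-2.67, SE 0.20, adjusted p = 6.38e-06) were lower than in acinar-like cells. *Obp1b* did not pass (-1.08, SE 0.64, adjusted p = 0.210), beside 18.9% of all genes lower and 19.8% higher. *Obp1b* passed without male 2 (-2.21, adjusted p = 9.23e-05). Scaled to total UMIs, *Obp1a* no longer passed (-0.42, adjusted p = 0.0587) and *Obp1b* rose (0.99, adjusted p = 0.0375) by less than the median gene.

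The *Ltf*+-like cells of the female library were above the same free-RNA limit, with *Obp1a* at 8.37, *Obp1b* at 7.39 and *Lcn11* at 8.80 times (4.66, 4.05 and 4.60 times with the droplets of over 300 UMIs). A few deep cells carried these sums: the median cell had 32000 CPM of *Obp1a* and 12400 CPM of *Obp1b*, and at 1000 UMIs per cell the means were 64.1 and 22.1 UMIs, beside 67.3 and 30.4 in lymphoid-like and 54.3 and 24.6 in endothelial-like cells, where they are background. With more doublets removed, 17 of the 73 cells were left, at 88600 CPM of *Obp1a* and 42500 CPM of *Obp1b*. The 73 cells carried 2630 *Obp1a* UMIs per cell, beside 268 and 380 in the male libraries, where the droplets held 123 and 99.2. Their median was 7379 UMIs, against 2317 and 2106.5 in the male cells, and the part of depth and doublets in these values was not tested.

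*Tfrc*hi-like cells, named for the transferrin receptor, numbered 74, 157 and 192 and had 86700, 85400 and 86600 CPM of *Obp1a*, 352, 11200 and 10700 CPM of *Mup4* and 1370, 2920 and 2250 CPM of *Lcn11*. *Obp1b* was counted at 109, 0.172 and 0.0521 UMIs per cell. All 4 were lower than in acinar-like cells, beside 19.8% of all genes lower and 14.8% higher. Their log2 fold changes ran from -2.75 (*Obp1a*, SE 1.09, adjusted p = 0.0354) to -2.22 (*Mup4*, SE 0.60, adjusted p = 0.00108). These calls rested on each male library, since without male 1 or without male 2 *Lcn11* alone passed (adjusted p = 0.00396 and 0.0476). Scaled to total UMIs *Obp1a* alone passed (-0.48, adjusted p = 0.00516) and *Mup4*, higher by CPM than in acinar-like cells in the female library, stood at 0.02.

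In duct-like and MEC-like cells all 4 lipocalins fell by TMM, beside 24.6% and 25.7% of all genes lower and 24.5% and 25.5% higher. By CPM, *Obp1b* of male 1 was higher there, at 93.3 and 85.3 CPM against 55.8 CPM in acinar-like cells. *Mup4* of the female library was 0.991 and 1.01 times the acinar-like level. The log2 fold changes ran from -3.82 (*Obp1a*, SE 0.92, adjusted p = 0.00293) to -3.24 (*Mup4*, SE 0.46, adjusted p = 3.46e-05) in duct-like cells. In MEC-like cells they ran from -3.97 (*Obp1a*, SE 0.88, adjusted p = 0.00254) to -3.40 (*Mup4*, SE 0.45, adjusted p = 6.15e-05). Without male 2, 2 of 4 passed in each, and scaled to total UMIs *Mup4* did not pass in duct-like cells (-0.51, adjusted p = 0.0745). What was left in these cells was at the level of the droplets, as above.

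The order of classes by *Obp1a* level was *Car6*hi-like, acinar-like, then *Ltf*+-like in the female library but *Tfrc*hi-like in male 1 and male 2. The third place in the female library rested on deep cells, since at 1000 UMIs per cell *Ltf*+-like cells had a mean of 64.1 *Obp1a* UMIs and *Tfrc*hi-like cells 85.0. Below these, the duct-like (62100 and 64000 CPM), MEC-like (57800 and 66100 CPM) and fibroblast-like cells (55100 and 63800 CPM) of the male libraries overlapped. By *Mup4* the order was *Car6*hi-like and acinar-like in the male libraries, with *Tfrc*hi-like (11200 and 10700 CPM) and *Ltf*+-like cells (10900 and 9610 CPM) overlapping below them. Lymphoid-like cells, read as background, stood beside these at 10300 and 9520 CPM. Their *Obp1a* level there, 75600 and 84300 CPM, was above that of *Ltf*+-like cells (74400 and 81400 CPM). The male order below acinar-like cells can therefore not be read as an order of expression.

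The acinar-like cells fell into 3 states by cluster depth and mitochondrial share, with limits of a median of 20000 UMIs and of 2% set after the clusters were seen. The RNA-rich state held 259, 463 and 589 cells at medians of 73480, 46052 and 36838 UMIs. The mitochondria-rich state held 320, 750 and 871 cells, and the low-mitochondria state 213, 213 and 460 cells. Median mitochondrial shares were 4.57%, 5.87% and 4.58% in the mitochondria-rich state. In the low-mitochondria state they were 0.427%, 2.0% and 0.0519%, so male 1 lay at the limit. *Obp1a* changed little over them: 151000, 114000 and 111000 CPM in the RNA-rich, 137000, 103000 and 108000 CPM in the mitochondria-rich and 147000, 113000 and 103000 CPM in the low-mitochondria state. *Mup4* in the male libraries was 14800 and 13100 CPM in the RNA-rich state, 11600 and 11600 CPM in the mitochondria-rich state and 12300 and 12200 CPM in the low-mitochondria state. *Lcn11* was 2360, 3550 and 2830 CPM in the RNA-rich state and lowest in the mitochondria-rich state of each library, with 1620, 2960 and 2470 CPM.

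Acinar-like cells were also split at their library's median, by mitochondrial UMIs and by RNA amount, with tear products left out of the measure. In cells with more mitochondrial RNA, *Obp1a* (log2 fold change -0.96, SE 0.36, adjusted p = 0.0199), *Mup4* (-0.98, SE 0.26, adjusted p = 0.000731) and *Lcn11* (-1.11, SE 0.23, adjusted p = 8.72e-06) were lower, and *Obp1b* was not called (-0.55, SE 0.30, adjusted p = 0.122), beside 22.1% of all genes lower and 25.3% higher. No call held when scaled to total UMIs, where the 4 values lay between -0.18 and 0.37 and the median of all genes at 1.03, or without male 2.

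In cells with more RNA 0 of 4 lipocalins passed by edgeR, beside 0% of 8541 genes higher and 0.0117% lower; at an unadjusted p under 0.05 there were 939 higher and 804 lower genes. The log2 fold changes were 0.92 for *Obp1a* (SE 0.37, adjusted p = 0.190), 0.13 for *Obp1b* (SE 0.39, adjusted p = 0.885), 0.62 for *Mup4* (SE 0.38, adjusted p = 0.354) and 0.98 for *Lcn11* (SE 0.32, adjusted p = 0.146). *Obp1a* and *Lcn11* had an unadjusted p under 0.05, and DESeq2 called both (adjusted p = 0.0173 and 0.0167). Scaled to total UMIs, *Obp1b* passed in the other direction, at -0.69 (adjusted p = 0.0149), and *Mup4* stood at -0.19, with the median of all genes at -0.84.

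The few *Obp1b* UMIs of the male libraries were not spread evenly. Of 2762 and 3152 epithelial-like cells, 19 and 17 had at least 20 *Obp1b* UMIs, a limit set after the values were seen, and these held 56.6% and 73.8% of the *Obp1b* UMIs and 1.91% and 1.15% of all UMIs. They were deeper than the rest, with medians of 32988 and 19084 UMIs against 3259 and 5116, and the part of depth was not tested. Their medians were 1930 and 4980 CPM of *Obp1b*, while all other cells together stood at 26.2 and 16.8 CPM. Of these cells 17 and 9 were acinar-like, and 11 and 6 also had at least 20 UMIs of *Gm14743*. Their *Mup4* medians, 14400 and 16200 CPM, were at the level of male acinar-like cells. In the female library 2420 of 2434 epithelial-like cells reached 20 *Obp1b* UMIs.

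*Mup4* was low in acinar-like cells of the female library. Of 792 cells, 82 had at least 20 *Mup4* UMIs and held 61.5% of the class's *Mup4* UMIs, and 174 had none. The 82 were deep cells, with a median of 128168 UMIs against 5234 in the others and 37.2% of all UMIs of the class. A median cell held 2 *Mup4* UMIs, against 105 and 110 in the male libraries. Per cell the female acinar-like cells carried 7.91 *Mup4* UMIs, above the 0.897 of the droplets, but as CPM *Mup4* was no higher there (221 CPM) than in duct-like (219 CPM) or MEC-like cells (223 CPM).

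The genes most like each lipocalin were taken by Pearson's r of log2(CPM + 10) over 33 points, the sums of 11 classes in 3 libraries that share free RNA and libraries, among 13187 genes. For *Obp1a* they were *Gm5938* (0.958), *Sval2* (0.898), *Pip* (0.830), *Bglap3* (0.824) and *Dnase1* (0.819). For *Obp1b* they were *Pnliprp1* (0.971), *Gm14743* (0.961), *Bpifa2* (0.933), *Xist* (0.926), the X-inactivation RNA found in female cells, and *Smr3a* (0.925). *Mup4* was closest to *2310057J18Rik* (0.962), *Wfdc12* (0.949), *9530002B09Rik* (0.948), *Esp16* (0.888) and *Scgb2b12* (0.887), and *Lcn11* to *Pip* (0.916), *9530002B09Rik* (0.868), *Mup4* (0.720), *Bglap3* (0.710) and *Esp6* (0.704). Between the 4 genes r ran from -0.86 (*Obp1b* with *Mup4*) to 0.72 (*Mup4* with *Lcn11*). *Obp1a* and *Obp1b*, neighbours on the X chromosome, had an r of 0.02.

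Few other lipocalins reached 100 UMIs, but the near copies *Gm5938* and *Gm14743* were abundant, with 6226836 and 1779128 UMIs in the kept cells. Of 22 *Mup* genes 3 had at least 100 UMIs in the kept cells (*Mup4*, *Mup6* and *Mup5*) and 15 had none. Of 10 *Lcn* genes 2 did (*Lcn11* and *Lcn2*), of 5 X-linked genes 4 and of 2 *Obp2* genes 0. Of 9 lipocalins of other groups *Apod*, which carries lipids, did, at 3080, 3420 and 3150 CPM in fibroblast-like cells. *Gm14744* had 0 UMIs, but 76.8% of the 60-base windows in its last 300 bases also occurred in other transcripts. Its 0, like those of *Mup* genes that share windows with *Mup4*, does not show that a gene was silent.

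*Mup5* and *Mup6* were higher in *Car6*hi-like cells than in acinar-like cells. *Mup5* had 99.4, 176 and 92.4 CPM there and 0.141, 0.476 and 0.270 CPM in acinar-like cells (log2 fold change 7.65, SE 0.25, adjusted p = 5.67e-11), from 155, 142 and 63 UMIs in 10, 24 and 13 cells. *Mup6* had 26.9, 44.5 and 39.6 CPM and 1.76, 6.43 and 5.38 CPM (2.16, SE 0.27, adjusted p = 7.24e-05). *Mup5* shares 60-base windows with *Mup4*. In the female library *Mup5* had 317 CPM in the 37 *Car6*hi-like cells high in neither *Mup4* nor *Lcn11*. The 41 cells high in both had 1.07 CPM. In the male libraries *Mup5* had 215 and 72.9 CPM in the 16 and 17 cells high in both. The 141 and 98 male cells high in *Mup4* only had 154 and 118 CPM. Their 7 and 16 cells high in neither had 0 CPM, at median depths of 1594 and 1335 UMIs. So few shallow cells cannot show whether *Mup5* was lower in them.

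*Lcn2*, a lipocalin that binds bacterial siderophores, had another pattern, with 1070, 845 and 761 CPM in MEC-like, 364, 364 and 439 CPM in duct-like and 1.02, 3.74 and 2.64 CPM in acinar-like cells. It was higher than in acinar-like cells in MEC-like (log2 fold change 5.77, adjusted p = 8.95e-08), duct-like (4.73, adjusted p = 6.87e-09), *Ltf*+-like (3.88, adjusted p = 1.81e-07) and *Car6*hi-like cells (2.98, adjusted p = 7.94e-05).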

How the data were processed

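Single-cell 3′ RNA sequencing (10x Genomics, v3.1) was done by the authors on 3 pooled LG suspensions. The deposited files hold raw UMI counts for each gene in each barcode, which the authors made, per the submitters' processing notes, with Cell Ranger 6.1.2 on mm10; the release of the gene annotation is not given in the sources used here. The study removed free RNA and doublets before its own clustering, whereas the matrices used here hold uncorrected counts. Clusters and class names were rebuilt here, and a difference from the study may come from that.

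Barcodes were kept above 500 UMIs and 200 genes and below a mitochondrial share of 15% (of 9737, 6422 and 6899 called barcodes), and the highest scrublet scores (scanpy 1.11.5; 0.8% per 1000 barcodes, 646, 287 and 315 cells) were removed. Clustering used Seurat 5.3.0 and sctransform 0.4.2 with CCA integration, 30 dimensions and resolution 1. An epithelial-like cluster that met no naming rule (156, 24 and 29 cells) and mast-like cells were left out, and the rule that set each epithelial class against the mean of the others was made after the clusters were seen. UMIs were summed per library and class and tested with edgeR 4.0.16 (quasi-likelihood, library block, filterByExpr, TMM, Benjamini-Hochberg), since cells are not replicates; DESeq2 1.42.0 was an alternative, with R 4.3.3. The code was checked on simulated data. For *Car6*hi-like against acinar-like cells 15% of 2-fold and 76% of 4-fold changes were recovered there. By RNA amount these were 32% and 95%, and in *Tfrc*hi-like cells 4% and 44%. A gene not called may therefore still differ. Both arms of a comparison come from the same suspension, which is where the pairing comes from. Sexes were not tested. Sequences came from GENCODE and RefSeq tables; proteins were not used here.

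The 4 genes and all lists were chosen with earlier results of these data known. Genes named besides them were the 5 with the highest likeness to each, and lipocalins with at least 100 UMIs; *Car6*, *Mup5* by cell and groups made with a limit of 20 UMIs were chosen after their values were seen. With 3 libraries, each a pool of animals, and the library as a block, p-values measure how a class difference varies between libraries. The total UMIs give Poisson intervals that cover counting error only.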

Additional observations from a re-analysis of the deposited data

Results flagged for a closer look

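In 6 cases over 10 classes the female library moved one way from acinar-like cells and both male libraries the other way, with counting intervals apart in each library, and classes at background were among them. The differences were not tested, and sex cannot be told apart from place and date. *Obp1b* in *Car6*hi-like cells stood at 0.258 times the acinar-like CPM in the female library and at 1.85 and 16.5 times in male 1 and male 2, where 89.0% of the *Car6*hi-like UMIs of male 2 lay in 4 cells. *Obp1b* in *Ltf*+-like cells stood at 0.725 times in the female library and at 1.31 and 9.53 times in the male libraries, where 2 cells of male 2 held 82.3% of the UMIs and male 1, at 73.0 CPM, was near its fibroblast-like cells at 72.7 CPM. *Mup4* in *Tfrc*hi-like cells stood at 1.59 times in the female library and at 0.80 and 0.843 times in the male libraries, all with UMIs per cell near those of uncalled droplets. *Mup4* in endothelial-like cells stood at 1.15, 0.59 and 0.68 times and in lymphoid-like cells at 1.5, 0.736 and 0.75 times, both at background. *Lcn11* in *Car6*hi-like cells stood at 4.07 times in the female library and at 0.625 and 0.789 times in the male libraries.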

How the results depend on the processing

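Of the recomputed log2 fold changes, 323 kept their direction and side of the threshold, 44 lost a call, 19 gained one and 18 turned; except where a cause is given, it was not tested. The count of lipocalins called in *Car6*hi-like cells went from 0 to 1 with total UMIs, resolution 0.6, resolution 1.5, more doublets removed or free RNA subtracted, to 2 with no filter on low counts, and to between 1 and 3 when 1 library was left out. The *Tfrc*hi-like count went from 4 to 1 with total UMIs, to 0 with marker gates in place of clusters, and to between 1 and 4 with 1 library left out. Leaving out a library gave 2 to 4 calls in duct-like and in MEC-like cells and 0 to 4 in acinar-like cells with more mitochondrial RNA, the lowest without male 2. Total UMIs took that mitochondrial count from 3 to 0 and the count in acinar-like cells with more RNA from 0 to 1, and DESeq2 took the latter to 2. Without the replicate block, the pairing of both arms within a library, calls fell from 4 to 1 in *Tfrc*hi-like, from 4 to 2 in duct-like and in MEC-like cells and from 3 to 0 in the mitochondrial comparison; the other 3 counts were the same. Of 12 pairs of gene and library, 9 were higher in *Car6*hi-like than in acinar-like cells by CPM and 5 per 10000 UMIs of other genes than tear products. Of 60 combinations 12 passed 2 times the free-RNA limit, and 6 when the median of the reference genes set it. Scaling to total UMIs turned *Obp1a* (0.81), *Obp1b* (1.02) and *Lcn11* (0.37) in *Car6*hi-like cells, *Obp1b* in *Ltf*+-like cells (0.99), *Mup4* in *Tfrc*hi-like cells (0.0245), *Obp1b* in the mitochondrial comparison (0.37) and *Obp1b* (-0.69) and *Mup4* (-0.19) in cells with more RNA. Marker gates turned *Obp1a* (0.25) and *Lcn11* (0.54) in *Car6*hi-like cells. *Obp1b* in *Car6*hi-like cells also turned without the female library (1.60) and without male 1 (0.04), with -1.58 as the lowest value when 1 library was left out, at resolution 0.6 (0.10), at resolution 1.5 (0.10) and with more doublets removed (0.17). *Obp1b* turned without the female library in *Ltf*+-like cells (0.00496, with -2.21 as the other end of the range) and in cells with more RNA (-0.30, the other end being 0.51), and there with a mitochondrial limit of 5% (-0.37). Over all genes the calls in *Car6*hi-like cells ran from 146 without the block to 4275 with total UMIs (649 as reported), in *Ltf*+-like cells from 1858 with free RNA subtracted to 8916 with total UMIs (3780), in *Tfrc*hi-like cells from 0 with marker gates to 5074 (2930), in duct-like cells from 3778 to 9243 (5016), in MEC-like cells from 4028 to 9201 (5268), by mitochondrial RNA from 1156 to 5619 (3920) and by RNA amount from 0 to 2914 (1). With total UMIs the higher and lower calls moved from 327 and 322 to 4224 and 51 in *Car6*hi-like cells, from 1930 and 1850 to 8833 and 83 in *Ltf*+-like cells, from 1254 and 1676 to 5057 and 17 in *Tfrc*hi-like cells, from 2503 and 2513 to 9113 and 130 in duct-like cells, from 2623 and 2645 to 9054 and 147 in MEC-like cells, from 2094 and 1826 to 5551 and 68 by mitochondrial RNA, and from 0 and 1 to 3 and 2911 by RNA amount.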

Other observations

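Uncalled barcodes of 10 to 100 UMIs were sparse (2454, 10619 and 6856) and held 11500 and 12600 CPM of *Obp1b* in the male libraries, against 119 and 46.7 CPM in the droplets of over 300 UMIs. Barcodes of 1 to 9 UMIs held 2760 and 3160 CPM. With either the 10 to 100 UMI barcodes or the larger droplets as free RNA, 12 of 60 combinations of gene, class and library passed 2 times the limit set by the reference tear genes.

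Over acinar-like cells of at least 5000 UMIs, 440, 958 and 1473 of them, the correlation of *Obp1a* with *Gm5938* was 0.91, 0.94 and 0.93, and that with *Mup4* -0.07, -0.08 and -0.23. The correlation of *Obp1b* with *Gm14743* was -0.18 in the female library and 0.59 and 0.46 in the male libraries. Cells of 1 library share its free RNA, and these values are a description.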
